A study of Yarrowia lipolytica with 9 samples.

Results

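The genes studied here encode 7 enzymes or enzyme subunits of fatty acid synthesis and desaturation in the oleaginous yeast Yarrowia lipolytica. They are ACL1 and ACL2, ACC1, FAS1 and FAS2, and OLE1 and FAD2, 7 of the 6366 features in the deposited tables. They were taken by transcript accession, and each row had to pass a check on its coding length: over 5000 bases for ACC1, FAS1 and FAS2, and 1100 to 2100 bases for the others. All 7 passed that check and the filter on low counts. Their RNA was sequenced in strains yl_12, yl_11 and yl_10, with 3 libraries each. Per the labels, all 3 strains are of the host ATCC 201249 and carry transformed heterologous genes. Cultures had grown for 72 h in flasks at 28 °C and 250 rpm. The series asks how transcriptomes differ between strains that make different amounts of lycopene, but the labels tie no lycopene level or named gene to a strain, and no untransformed parent was included. Every strain was therefore compared with each of the others.

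In oleaginous yeasts, citrate exported from mitochondria is split in the cytosol by ATP citrate lyase, giving acetyl-CoA. Acetyl-CoA carboxylase turns part of it into malonyl-CoA, and the fatty acid synthase joins both into saturated acyl chains, into which desaturases then place double bonds. Acetyl-CoA also feeds the mevalonate pathway, from which carotenoids such as lycopene are built. In this yeast the chains are largely stored as triacylglycerol in lipid bodies.

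Library totals ran from 7035777 to 16424183 counts. In each strain the library that correlated least with the other 2 was set apart, so 1 per strain is named whatever the data. They were yl_12 replicate 3, yl_11 replicate 1 and yl_10 replicate 3, with a mean r to their own strain of 0.9925, 0.9951 and 0.9910. The gaps were small, as the others had 0.9947 and 0.9947 in yl_12, 0.9957 and 0.9959 in yl_11, and 0.9940 and 0.9933 in yl_10. The yl_11 library set apart had the highest total and the yl_10 library the lowest, and any part of depth was not tested. The deviations of these 3 libraries from the strain means were positively correlated, with r between 0.24 and 0.65 across 2995 features. They were singled out by their own measurements, and results are given with and without them. Leaving out such a library lowers the spread of its strain by construction, so p-values without it tend to be too small. This also applies where yl_12 replicate 3 alone is left out. RNA came from whole cultures, so that more cells expressing a gene and more transcript per cell cannot be told apart.

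The identity of the rows rests on their accessions and coding lengths. The lengths were 1953 bases for ACL1 (XM_504787.1, locus tag YALI1_E41315g), 1494 for ACL2 (XM_503231.1, YALI1_D32268g), 6801 for ACC1 (XM_501721.1, YALI1_C15991g), 6261 for FAS1 (XM_500912.1, YALI1_B19844g), 5553 for FAS2 (XM_501096.1, YALI1_B25427g), 1449 for OLE1 (XM_501496.1, YALI1_C07638g) and 1260 for FAD2 (XM_500707.1, YALI1_B13699g). The RefSeq gene table of assembly ASM176148v1 gives the same length for ACL1, ACL2, OLE1 and FAD2, and longer gene spans for ACC1 (7270 bases) and FAS1 (6337). For FAS2 the matched gene spans 4872 bases, which is 681 fewer than the coding length behind the deposited values. The gene models thus differ, and the level of FAS2 per length depends on which is used.

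Levels per length, in FPKM (fragments scaled to coding length and library total), fell in the same order in all 9 libraries, and no neighbours in that order overlapped. OLE1 was the most abundant, with a mean of 1693 FPKM over the 9 libraries and a rank between 85 and 127 among the 6366 features. ACL1 followed with 445 FPKM (ranks 315 to 395), ACL2 with 327 FPKM (430 to 549) and FAD2 with 219 FPKM (696 to 844). The large enzymes were scarcer, with 94.5 FPKM for FAS1 (1417 to 1998), 56.0 FPKM for ACC1 (2197 to 2739) and 12.9 FPKM for FAS2 (4156 to 4933). OLE1 was 3.81 times as abundant per length as ACL1, and ACC1 was 4.33 times as abundant as FAS2. Counts were never scarce, with 387 in the lowest library for FAS2 and 41607 in the highest for OLE1.

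**Figure D1:**
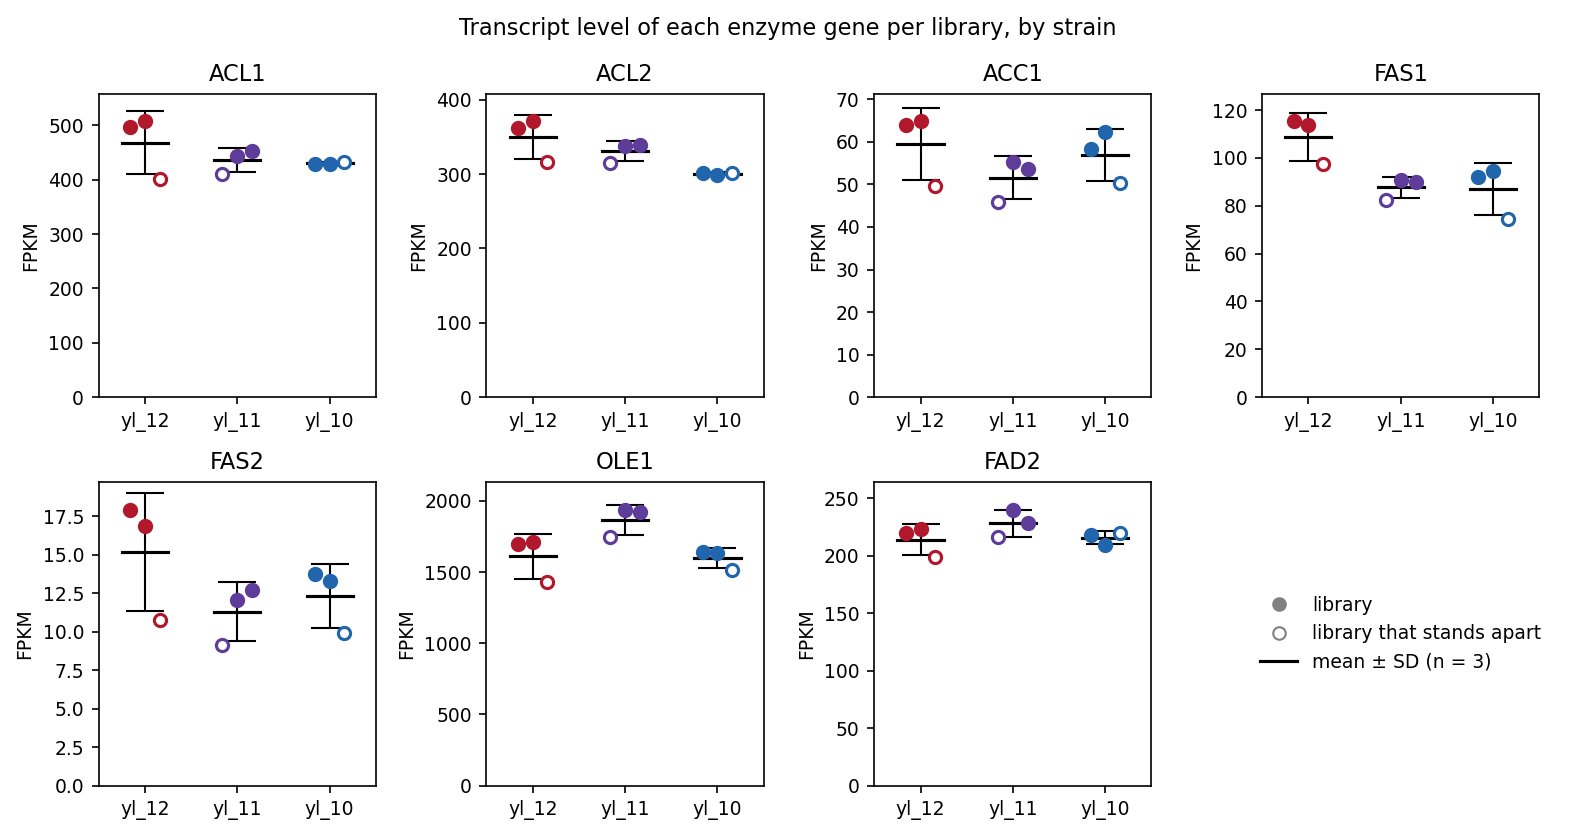
Each panel plots 1 gene, with the level in FPKM on a y axis that starts at 0 and the strains yl_12, yl_11 and yl_10 on the x axis. Points are libraries, open points are the 3 that stand apart, and bars are the mean ± SD (n = 3). FAS1 is higher in all yl_12 libraries than in any other, OLE1 is highest in yl_11, and open points lie lowest for most genes.

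Across strains, the fatty acid synthase subunit gene FAS1 was highest in yl_12, the lyase subunit gene ACL2 was higher in yl_12 than in yl_10, and OLE1 was highest in yl_11. The highest called fold was 1.30. FAS1, ACL2 and OLE1 differed among the 3 strains in the F test of edgeR, so 3 of the 7 members were called where 15% of all 6147 tested features were (adjusted p below 0.05). Of 17 alternatives, that of FAS1 (adjusted p = 0.014) was lost in 6, including without yl_12 replicate 1 or 2 (0.067 and 0.069). That of ACL2 (adjusted p = 0.016) was lost in 8, including without yl_12 replicate 1 or 2 or yl_10 replicate 1 or 2 (0.060 to 0.063). That of OLE1 (adjusted p = 0.044) was lost in 12, and no single pair of strains was called for it. Against yl_10, yl_12 had 2 members called, both higher, with 14.8% of all features called in either direction and 7% called higher. Against yl_11, yl_12 had 1 member called, which was higher, with a background of 7.04% in either direction and 3.2% higher. Between yl_11 and yl_10 edgeR called 0 members, with a background of 4.16%. There, 2 members had an unadjusted p below 0.05, as did 19.5% of all features. DESeq2 called 1 member and 5.99% of all features, and limma on log2(FPKM + 1) called 0 members and 3.32% of those it tested. These numbers moved with single libraries, as did the background. Without yl_12 replicate 3, 3 members were called in yl_12 against yl_10 (16.1% of all features), 5 in yl_12 against yl_11 (11.7%) and 2 in yl_11 against yl_10 (8.43%), all higher, and 6 among the 3 strains (20%). Without yl_12 replicate 1 or 2, 0 members were called among the 3 strains (9.06% and 8.88% of all features). In yl_12 against yl_11, 0 were called without yl_12 replicate 1 or 2 or any 1 of the yl_11 libraries (3.08% to 3.72%). The comparisons share libraries, so their folds are not independent of each other.

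The median log2 fold change of the 7 members was 0.18 for yl_12 against yl_10, where 7 of 7 were above 0. With library totals only and in the 3 limma fits FAD2 was below 0 there. For all features the median was near 0 (-0.0037) and 49.0% were above 0. In yl_12 against yl_11 the members' median was 0.13 with 5 of 7 above 0, and for all features 49.6% were above 0. In yl_11 against yl_10 it was 0.04, again with 5 of 7 above 0, and 49.9% of all features were. These counts include members that did not pass the test.

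ATP citrate lyase is built from the products of ACL1 and ACL2. In replicates 1, 2 and 3, the order used throughout, ACL2 had 362, 371 and 317 FPKM in yl_12, 315, 338 and 339 FPKM in yl_11, and 302, 299 and 302 FPKM in yl_10. Every yl_12 and every yl_11 library lay above all yl_10 libraries, while those of yl_12 and yl_11 overlapped. The means were 350 ± 29 FPKM in yl_12, 331 ± 13 FPKM in yl_11 and 301 ± 1.8 FPKM in yl_10 (SD, n = 3). ACL2 rose in yl_12 against yl_10 by 0.27 on the log2 scale (SE 0.06, adjusted p = 0.0058), and this call held in 18 of 18 alternatives. It was not called for yl_11 against yl_10 (0.16, SE 0.06, adjusted p = 0.13), although the libraries did not overlap, nor for yl_12 against yl_11 (0.11, SE 0.06, adjusted p = 0.27). Without yl_12 replicate 3 both were called (0.17 each, adjusted p = 0.029 and 0.030), where the range over alternatives was 2.38e-06 to 0.33 for yl_11 against yl_10 and 0.00030 to 0.63 for yl_12 against yl_11. The lowest value of each range came from the fit without the 3 libraries that stand apart.

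ACL1 had 497, 508 and 401 FPKM in yl_12, against 411, 443 and 454 FPKM in yl_11 and 428, 429 and 433 FPKM in yl_10. In FPKM a pair of yl_12 libraries lay above all others and replicate 3 lay below all others, so the groups overlapped. In CPM with TMM factors, yl_11 replicate 1 was lowest (806), just below yl_12 replicate 3 (807). The log2 fold change was 0.18 in yl_12 against yl_10 (SE 0.07, adjusted p = 0.13), 0.13 in yl_12 against yl_11 (SE 0.07, adjusted p = 0.32) and 0.04 in yl_11 against yl_10 (SE 0.07, adjusted p = 0.80). None passed the test. Without yl_12 replicate 3, ACL1 was called higher in yl_12 against yl_10 (0.28, adjusted p = 0.0018) and against yl_11 (0.23, adjusted p = 0.010). Over all alternatives the adjusted p ran from 3.25e-11 to 0.40 against yl_10 and from 6.25e-07 to 0.71 against yl_11. The lowest value of each range came from the fit without the 3 libraries that stand apart.

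ACC1, acetyl-CoA carboxylase, makes malonyl-CoA, the committed step of fatty acid synthesis. It had 63.9, 64.9 and 49.6 FPKM in yl_12, 45.9, 55.3 and 53.7 FPKM in yl_11, and 58.3, 62.3 and 50.3 FPKM in yl_10. All 3 strains overlapped, and in each the lowest value belonged to the library that stands apart. The log2 fold changes were 0.23 for yl_12 against yl_11 (SE 0.11, 95% interval -0.01 to 0.48, adjusted p = 0.26), 0.11 for yl_12 against yl_10 (SE 0.11, interval -0.13 to 0.36, adjusted p = 0.56) and -0.12 for yl_11 against yl_10 (SE 0.11, interval -0.37 to 0.13, adjusted p = 0.60). A level in yl_12 of up to 1.40 times that in yl_11 lies within these intervals. Without yl_12 replicate 3, ACC1 was called higher in yl_12 against yl_11 (0.34, adjusted p = 0.023, range over alternatives 4.74e-08 to 0.56). The lowest value of that range came from the fit without the 3 libraries that stand apart.

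FAS1 encodes the beta subunit of the cytosolic fatty acid synthase. It had 115, 114 and 97.4 FPKM in yl_12, 82.6, 90.8 and 89.8 FPKM in yl_11, and 91.9, 94.4 and 74.4 FPKM in yl_10. The lowest yl_12 library exceeded the highest library of either other strain, while yl_11 and yl_10 overlapped. Means were 109 ± 10 FPKM in yl_12, 87.7 ± 4.5 FPKM in yl_11 and 86.9 ± 10.9 FPKM in yl_10. FAS1 rose in yl_12 against yl_10 by 0.38 on the log2 scale (SE 0.08, adjusted p = 0.0094), or 1.30-fold with a 95% interval of 1.15 to 1.47. This call held in 18 of 18 alternatives, with an adjusted p of up to 0.049. Against yl_11 the rise was 0.34 (SE 0.08, adjusted p = 0.029), or 1.27-fold with an interval of 1.12 to 1.43. That call was lost in 9 of 18 alternatives: with library totals as the only scaling (adjusted p = 0.090), in each of the 3 fits on FPKM, and without any 1 of yl_12 replicate 1 or 2 or yl_11 replicate 1, 2 or 3 (adjusted p from 0.071 to 0.12). Its log2 fold change stayed between 0.30 and 0.41 in all of them. Between yl_11 and yl_10, FAS1 differed by 0.04 (SE 0.08, adjusted p = 0.85).

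FAS2 encodes the alpha subunit, which carries the acyl carrier and ketoacyl synthase functions. It had 17.9, 16.8 and 10.8 FPKM in yl_12, 9.11, 12.03 and 12.7 FPKM in yl_11, and 13.7, 13.3 and 9.91 FPKM in yl_10. Again a pair of yl_12 libraries was above all others, and replicate 3 fell among those of the other strains. FAS2 varied more within strains than any other member: its pooled SD within strains was 0.30 on the log2 scale, and 98.8% of the 2995 features above 50 CPM varied less. For comparison, this SD was 0.16 for ACC1, 0.12 for FAS1, 0.11 for ACL1, 0.09 for OLE1, 0.07 for ACL2 and 0.07 for FAD2, and the median of those features was 0.07. The log2 fold changes of FAS2 were 0.46 for yl_12 against yl_11 (SE 0.21, adjusted p = 0.27), 0.34 for yl_12 against yl_10 (SE 0.22, adjusted p = 0.36) and -0.12 for yl_11 against yl_10 (SE 0.22, adjusted p = 0.82). None passed the test, and the interval of the first ran from -0.04 to 0.96. Without yl_12 replicate 3, FAS2 was called higher in yl_12 against yl_11 (0.66, adjusted p = 0.034, range over alternatives 2.34e-09 to 0.56). The lowest value of that range came from the fit without the 3 libraries that stand apart.

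OLE1 is the delta-9 desaturase, which places the first double bond in saturated acyl-CoA and so makes palmitoleic and oleic acid. It had 1695, 1710.5 and 1428 FPKM in yl_12, 1748, 1939 and 1920 FPKM in yl_11, and 1641, 1637 and 1516 FPKM in yl_10. Every yl_11 library lay above every library of the other 2 strains, and yl_12 and yl_10 overlapped. OLE1 passed the F test among the 3 strains (adjusted p = 0.044), which was lost in 12 of 17 alternatives. These included leaving out any 1 of yl_12 replicate 1 or 2, yl_11 replicate 2 or 3, or yl_10 replicate 1, 2 or 3 (adjusted p from 0.055 to 0.17). No single pair passed: the log2 fold change was 0.25 for yl_11 against yl_10 (SE 0.07, adjusted p = 0.053), -0.18 for yl_12 against yl_11 (SE 0.07, adjusted p = 0.12) and 0.07 for yl_12 against yl_10 (SE 0.07, adjusted p = 0.58). DESeq2 called yl_11 against yl_10 (0.25, adjusted p = 0.011), as did edgeR on the libraries of those 2 strains alone (0.25, adjusted p = 0.017) and edgeR without yl_12 replicate 3 (0.26, adjusted p = 0.0042). In all, 4 of 18 alternatives called it. The adjusted p ran from 1.55e-11, in the fit without the 3 libraries that stand apart, to 0.19.

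FAD2 is the delta-12 desaturase, which converts oleic into linoleic acid. It had 220.04, 223 and 199 FPKM in yl_12, 216, 240.04 and 228 FPKM in yl_11, and 218, 209 and 219.7 FPKM in yl_10. The strains overlapped. The log2 fold change of yl_12 against yl_10 was 0.04 (SE 0.05, interval -0.08 to 0.16, adjusted p = 0.68), and its sign turned with library totals only (-0.01) and in the 3 limma fits (-0.01 each). It was 0.10 in yl_11 against yl_10 (SE 0.05, adjusted p = 0.31) and -0.06 in yl_12 against yl_11 (SE 0.05, adjusted p = 0.55). An interval of 0.95 to 1.12 on the fold of yl_12 over yl_10 bounds the size of a difference, though it does not show equal levels.

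Libraries of 2 strains did not overlap for 2 members in yl_12 against yl_10 (ACL2 and FAS1, both higher), where 31.5% of all features did not and 15.2% were higher without overlap. In yl_12 against yl_11 this held for FAS1, which was higher, and OLE1, which was lower, with 28.1% of all features, 13.6% higher and 14.5% lower. In yl_11 against yl_10 it held for ACL2 and OLE1, both higher, with 27.1% of all features, of which those higher made up 13.2% of the total. Each share of 2 in 7 is close to its background.

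Most of these genes were low in the libraries that stand apart, most uniformly in yl_12 and yl_11. In yl_12 replicate 3, 7 of 7 members were below both other libraries of the strain, with a median deviation of -0.23 on the log2 CPM scale, where 40.2% of all tested features were below both. In yl_11 replicate 1, 7 of 7 were below both (median -0.12), against 36.8% of all features. In yl_10 replicate 3, 4 of 7 were below both and ACL1, ACL2 and FAD2 were above both, against 44.4% of all features below both. FAS2 deviated most in each, by -0.66 in yl_12, -0.43 in yl_11 and -0.40 in yl_10, and ACC1 by -0.35, -0.24 and -0.22. FAS1 deviated by -0.21, -0.12 and -0.28 in the same order of strains. ACC1, FAS1 and FAS2 are also the longest members. The 62 tested RefSeq features with a coding length over 5000 bases had median deviations of 0.04, 0.03 and 0.01 in these libraries. Of them, 29.0%, 33.9% and 40.3% lay below both other libraries. The 2298 features of 1100 to 2100 bases, the class of the other members, had medians of -0.032, -0.0058 and -0.0037. Of those, 49.4%, 38.6% and 42.3% lay below both. The part of transcript length in the members' values was not tested. These deviations are a description, since the libraries were chosen by how they differed.

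**Figure D2:**
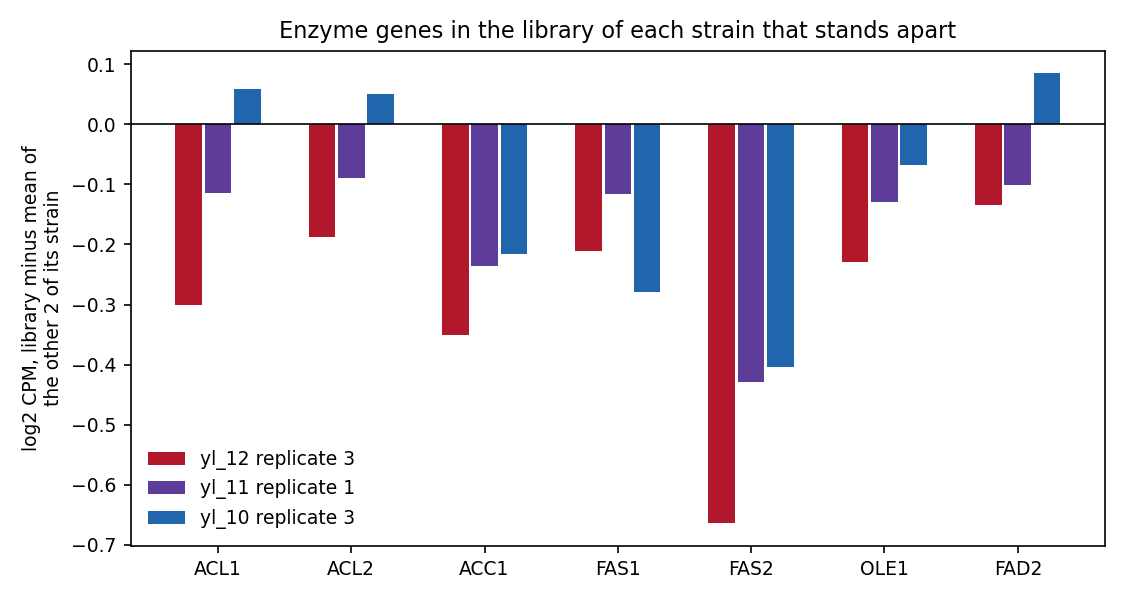
Bars give the log2 CPM of each gene in yl_12 replicate 3, yl_11 replicate 1 and yl_10 replicate 3, minus the mean of the other 2 libraries of that strain. ACC1, FAS1, FAS2 and OLE1 lie below 0 in all 3 libraries, with FAS2 lowest, while ACL1, ACL2 and FAD2 lie above 0 in the yl_10 library.

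Without these 3 libraries more members were called, as were more features in general. In yl_12 against yl_10 all 7 members were higher, with log2 fold changes from 0.11 for FAD2 (adjusted p = 0.018) to 0.42 for FAS2 (adjusted p = 1.26e-07), where 31.2% of all features were called and 15.6% were called higher. The values between them were 0.36 for FAS1, 0.35 for ACL2, 0.29 for ACL1, 0.16 for ACC1 and 0.12 for OLE1. In yl_12 against yl_11, 5 members were higher and OLE1 was lower (-0.15, adjusted p = 1.81e-06), while FAD2 was not called (-0.05, adjusted p = 0.31), with 24.6% of all features called and 13.1% called higher. FAS2 (0.52), FAS1 (0.37), ACC1 (0.27), ACL1 (0.19) and ACL2 (0.14) were the higher members. In yl_11 against yl_10, OLE1 (0.27), ACL2 (0.21), FAD2 (0.16) and ACL1 (0.10) were higher and ACC1 was lower (-0.11, adjusted p = 0.019). FAS1 (-0.01) and FAS2 (-0.10) were not called, and the background was 20.1% in either direction and 10.1% higher. The F test among the 3 strains called all 7 members, with a background of 38.3%. Leaving out the least similar library of each strain lowers the spread by construction, so these p-values are too small. Between all 9 and these 6 libraries no fold of a member moved by more than its standard error in the 9-library fit, except for ACL1, ACL2 and FAD2 in yl_12 against yl_10 and FAD2 in yl_11 against yl_10.

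**Figure D3:**
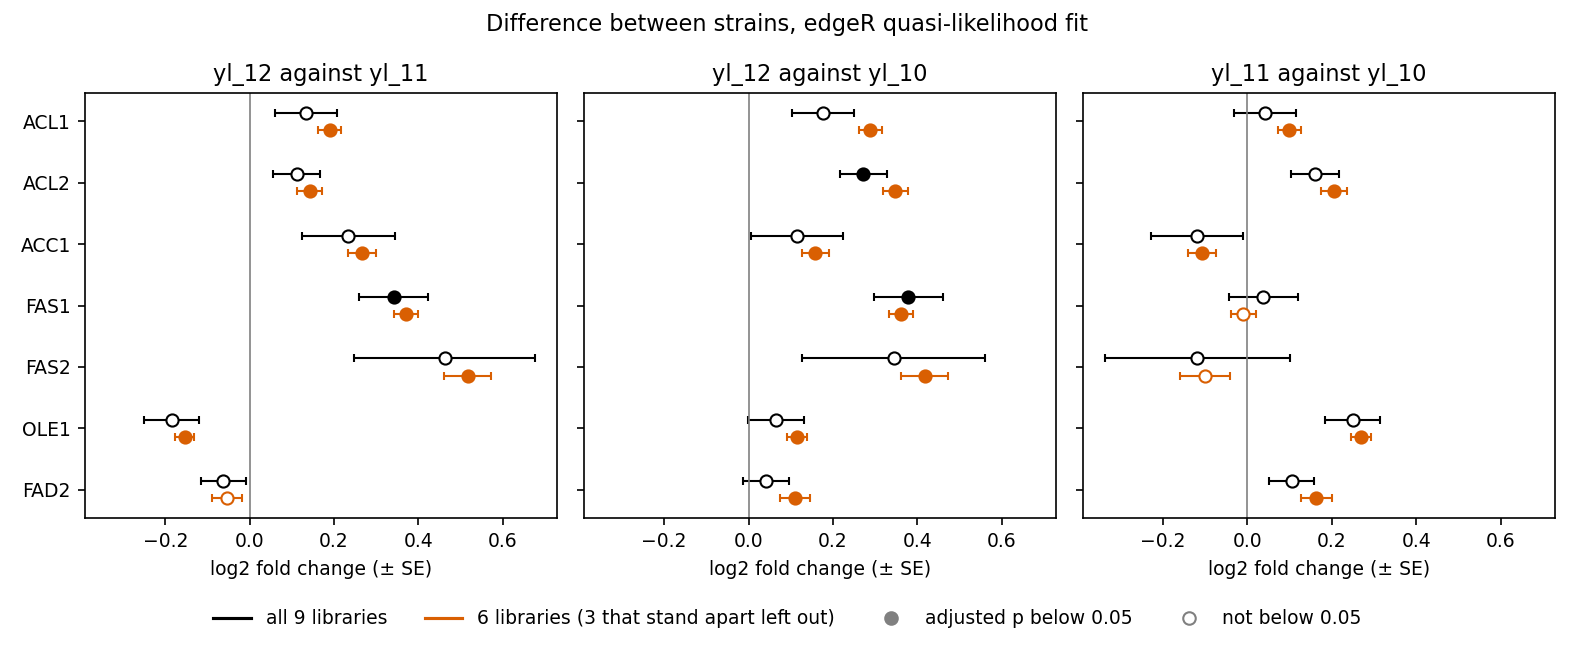
Points are log2 fold changes of the first strain named over the other, with bars of ± SE, for all 9 libraries (black) and for 6 libraries without those that stand apart (orange). Filled points have an adjusted p below 0.05: with 9 libraries these are FAS1 against both other strains and ACL2 against yl_10.

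Ratios between members within a library do not depend on how libraries are scaled. For each of 4 ratios of FPKM, an exact permutation test over all 1680 assignments of the 9 libraries to 3 strains asked whether it differed among strains, and p-values were adjusted over the 4. The ratio of ACC1 to FAS1 was 0.553, 0.570 and 0.509 in yl_12, 0.555, 0.609 and 0.598 in yl_11, and 0.635, 0.659 and 0.676 in yl_10. Every yl_10 library was above every library of yl_12 and yl_11, which overlapped. The ratio differed among strains (permutation p = 0.0071, adjusted p = 0.029, where 0.0036 is the smallest p possible). This call was lost without yl_12 replicate 1, yl_11 replicate 2 or 3, or yl_10 replicate 2 or 3, with adjusted p of up to 0.079. In the edgeR fit of the same libraries, FAS1 was called higher in yl_12 than in each other strain, while ACC1 was not called. Between yl_11 and yl_10 neither gene was called, with log2 fold changes of 0.04 for FAS1 and -0.12 for ACC1.

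The ratio of ACL1 to ACL2 was 1.37, 1.37 and 1.27 in yl_12, 1.30, 1.31 and 1.34 in yl_11, and 1.42, 1.44 and 1.44 in yl_10. All yl_10 libraries were above all others, but the difference did not pass after adjustment (permutation p = 0.043, adjusted p = 0.086). It passed without yl_12 replicate 3 (adjusted p = 0.014). OLE1 had 7.70, 7.66 and 7.19 times the FPKM of FAD2 in yl_12, 8.08, 8.08 and 8.41 times in yl_11, and 7.52, 7.83 and 6.90 times in yl_10. Each yl_11 library lay above those of the other strains (permutation p = 0.079, adjusted p = 0.10). FAS1 had 6.44, 6.76 and 9.04 times the FPKM of FAS2 in yl_12, 9.07, 7.55 and 7.06 times in yl_11, and 6.68, 7.10 and 7.51 times in yl_10. The strains overlapped (permutation p = 0.65, adjusted p = 0.65), and the highest value in each belonged to the library that stands apart. Although both subunits belong to the same synthase complex, their rows were thus far from equal per length in all 9 libraries. The gene models of FAS2 given above (5553 and 4872 bases) bear on this ratio, and the size of their effect was not tested.

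**Figure D4:**
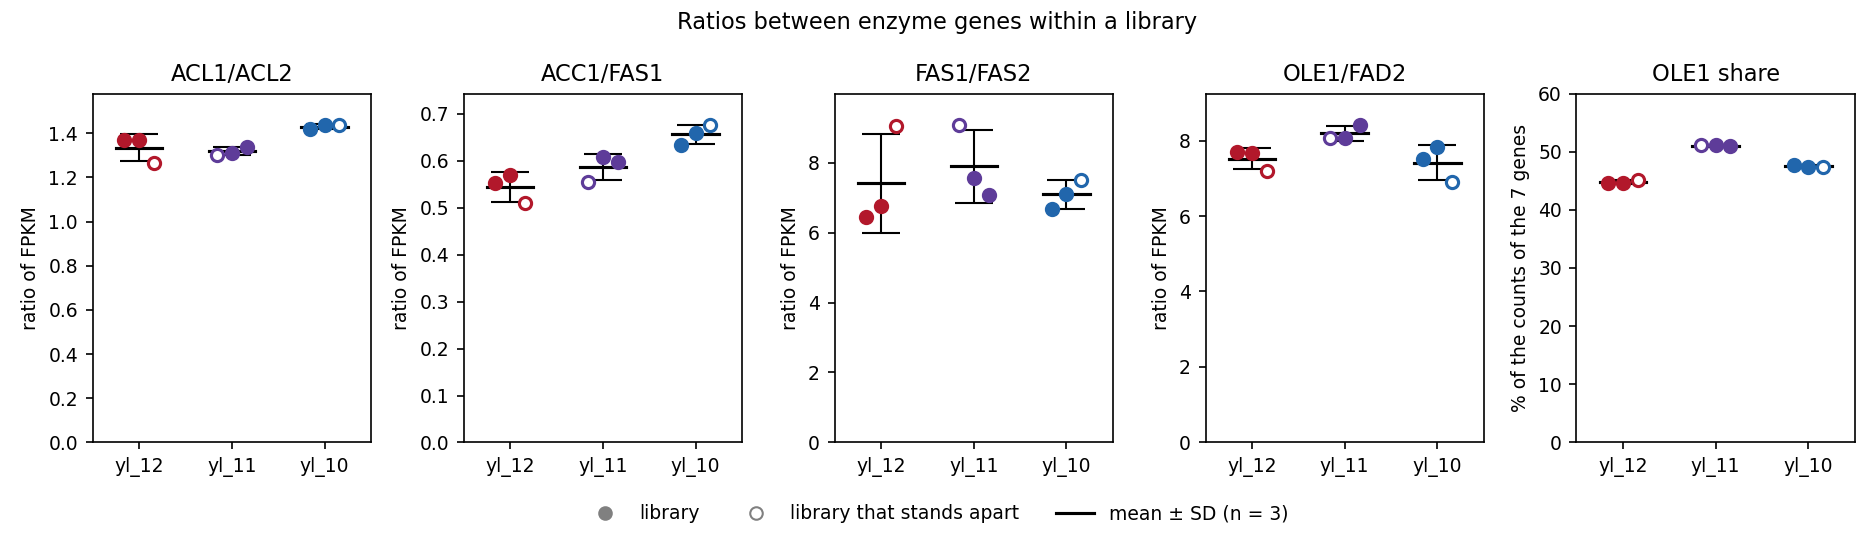
The 4 left panels give the ratio of FPKM between a pair of genes in each library, and the right panel the share of OLE1 in the counts of all 7 genes, in percent, with strains yl_12, yl_11 and yl_10 on the x axis. Points are libraries (open: those that stand apart), bars are the mean ± SD (n = 3), and all y axes start at 0. The OLE1 share is close to constant within each strain and does not overlap between strains.

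Together the 7 genes took between 0.458% (95% Wilson interval 0.455% to 0.462%) and 0.555% (0.551% to 0.560%) of the counts of a library, both in yl_12. OLE1 alone took 44.6%, 44.6% and 45.2% of the counts of the 7 genes in yl_12, 51.1%, 51.1% and 51.0% in yl_11, and 47.7%, 47.4% and 47.4% in yl_10. The strains did not overlap, and in this share of counts the libraries that stand apart were close to the others of their strain. The widest Wilson interval, in yl_10 replicate 3, was 46.9% to 48.0%. Such intervals cover counting error only. FAS1 took 13.1% ± 0.2 of these counts in yl_12, 10.4% ± 0.1 in yl_11 and 11.1% ± 0.9 in yl_10, and ACL1 17.5% ± 0.4, 16.1% ± 0.3 and 17.3% ± 0.9 in the same order. As a share of the FPKM of the 7 genes, OLE1 took 56.9% to 57.1% in yl_12, 61.8% to 62.2% in yl_11 and 58.2% to 59.7% in yl_10. In that unit the strains did not overlap either, but the yl_10 libraries were less close to each other. The shares were looked at after the values had been seen and are given with no test.

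Profiles over the 9 libraries were compared by the root mean square difference of log2 CPM, each centred on its own mean. ACL2 ranked 31 among 6146 features in likeness to ACL1 (difference 0.06), and ACL1 ranked 41 in likeness to ACL2. FAD2 ranked 37 in likeness to OLE1, while OLE1 ranked 695 from the side of FAD2. For FAS2, whose profile varied most, ACC1 ranked 45 (0.16) and FAS1 ranked 57 (0.17). From the side of FAS1, ACC1 ranked 206 and FAS2 ranked 827. Some other pairs lay between, as ACL1 ranked 168 in likeness to ACC1, and ACC1 ranked 699 from the side of ACL1. Others were far apart. In likeness to OLE1, FAS1 ranked 4423 and FAS2 ranked 5405, and in likeness to FAD2 they ranked 4533 and 5454. FAS2 ranked 4474 in likeness to ACL1, while ACL1 ranked 290 from the side of FAS2. Libraries of a strain share their source and the 3 that stand apart weigh on each profile, so these ranks describe these 9 libraries.

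The features most like each member were not other members. They were YALI1_E04420g and YALI1_A11258g for ACL1 (differences 0.04 and 0.04), YALI1_F25570g and YALI1_F22376g for ACL2 (0.02 and 0.03), YALI1_D02180g and YALI1_B11715g for ACC1 (0.05 and 0.06), and YALI1_B17155g and YALI1_E30234g for FAS1 (0.04 and 0.04). For FAS2 they were YALI1_B21935g and YALI1_B22853g (0.09 and 0.09), for OLE1 YALI1_C11096g and YALI1_C17050g (0.05 and 0.06), and for FAD2 YALI1_F17103g and YALI1_B14826g (0.04 and 0.04). The lowest mean levels among these features were 6.5 CPM for YALI1_D02180g and 14.7 CPM for YALI1_F25570g. The part of counting noise in their likeness was not tested.

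No tested gene on either side of a called member was called in the same direction as that member. Beside FAS1, YALI1_B19774g stood at -0.08 on the log2 scale in yl_12 against yl_10 (SE 0.06, adjusted p = 0.41) and YALI1_B19880g at 0.05 (SE 0.05, adjusted p = 0.59). Beside ACL2, YALI1_D32316g was lower in yl_12 than in yl_10 (-0.35, SE 0.05, adjusted p = 0.00032) and than in yl_11 (-0.21, SE 0.05, adjusted p = 0.016). YALI1_D32209g, on its other side, was lower in yl_11 than in yl_10 (-0.32, SE 0.07, adjusted p = 0.028) and not called in yl_12 against yl_10 (-0.18, SE 0.07, adjusted p = 0.12). Beside OLE1, YALI1_C07613g (0.01, SE 0.08) and YALI1_C07670g (0.06, SE 0.05) were not called in yl_11 against yl_10, with adjusted p of 0.97 and 0.58.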

How the data were processed

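RNA of 3 strains was sequenced in 9 libraries of paired-end reads on an Illumina HiSeq instrument, per the labels' protocols. The authors deposited read counts per feature, which are whole numbers and not normalised, and FPKM values. The deposited FPKM equal count divided by coding length and library total, with no composition factor, as checked on the tables. Per the submitters' processing notes, the tools include HTSeq 0.6.1 and DESeq 1.18.0, with no step tied to them. The aligner, genome build, annotation and strand setting were not given in the sources used here, so reads shared with overlapping or near-identical genes cannot be traced.

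The main test was edgeR's quasi-likelihood test (version 4.0.16, in R 4.3.3) on the counts, with TMM factors (0.970 to 1.03), the default filter by strain and robust dispersions. A single fit of all 9 libraries had strain as its sole term, and p-values were adjusted by Benjamini-Hochberg over 6147 tested features. A call is an adjusted p below 0.05. Folds are log2 with standard error (SE), and levels are FPKM with SD over 3 libraries. Alternatives were DESeq2 1.42.0, limma 3.58.1 on log2(FPKM + 1) and log2(FPKM + 0.1) with a mean of at least 1 FPKM or no filter, library totals, no count filter, a replicate block, 2-strain fits, and libraries left out. The edgeR and limma fits were also run on simulated data. There edgeR called 71% to 80% of changes of 0.5 on the log2 scale and 90.9% to 94% of changes of 1. Of its calls, 3.5% to 6.1% were unchanged features. Changes below 0.5, the size of all member folds in the main fit, were not simulated, nor was a library that stands apart.

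Between libraries of the same strain the chi-square per degree of freedom was 1.73 to 15.6, above counting noise, and each was treated as a separate library. Between the 2 libraries of a strain that do not stand apart it was 1.73 in yl_12, 2.33 in yl_11 and 1.87 in yl_10. Pairs with the library that stands apart had 7.18 to 15.6. These values do not show whether libraries are separate cultures. The labels do not say this either, so p-values measure only the spread between libraries, which may be technical. The named features are the 7 members, the 2 features most like each, and the tested neighbours of called members. The members and lists were chosen with earlier results of these data known. Of 12 further lipid pathway genes listed by older locus tag, 0 could be matched to the RefSeq table, so they are not reported here. Coordinates are not printed because the build is not stated.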

Additional observations from a re-analysis of the deposited data

How the results depend on the processing

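The calls of FAS1 and ACL2 in yl_12 against yl_10 held in all 18 alternatives run. The number of members called in yl_12 against yl_11 was 0 in place of 1 with library totals only (6.69% of all features called) and in the 3 limma fits on FPKM (5.63% to 6.05%). The number called among the 3 strains was 0 in place of 3 in the same 4 alternatives (16.2%, and 13.5% to 14.4%). In yl_11 against yl_10 it was 1 in place of 0 with DESeq2 (5.99%) and with only the 2 strains compared (5.32%). Without the 3 libraries that stand apart the numbers were 6 (yl_12 against yl_11, 24.6% of all features), 7 (yl_12 against yl_10, 31.2%), 5 (yl_11 against yl_10, 20.1%) and 7 (among the 3 strains, 38.3%). With 1 library left out in turn they ranged from 0 to 5 (3.08% to 11.7% of all features), 2 to 3 (9.95% to 16.1%), 0 to 2 (1.02% to 8.43%) and 0 to 6 (8.88% to 20%), in the same order. The highest counts all came without yl_12 replicate 3. The cause was not tested.

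The log2 ratio of FAS1 to FAS2 in yl_12 minus yl_10 was 0.047 with all libraries and -0.063 without those that stand apart, and -0.10 to 0.14 with 1 left out. That of OLE1 to FAD2 ranged from -0.031 to 0.061, that of ACL1 to ACL2 from -0.12 to -0.063 and that of ACC1 to FAS1 from -0.31 to -0.23. For ACC1 to FAS1, leaving out the libraries that stand apart gave -0.20 (adjusted p = 0.13), where 2 libraries per strain allow no p below 0.067. Small folds that changed sign, none of them called in either fit, were FAD2 in yl_12 against yl_10 (-0.011 with library totals and -0.013 in each of the 3 limma fits), FAS1 in yl_11 against yl_10 (-0.0094 without the 3 libraries, and -0.049 to 0.092 with 1 left out, lowest without yl_10 replicate 3) and FAS2 in yl_11 against yl_10 (0.017 without yl_11 replicate 1).

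No pairing of libraries by replicate number was seen: deviations of same-numbered libraries correlated at -0.54 to 0.37, and 4 of 18 best matches in another strain had the same number. The libraries that stand apart, numbered 3, 1 and 3 in yl_12, yl_11 and yl_10, weigh on these deviations. A smaller effect shared by number could therefore not be seen. With the replicate number as a block, 1, 2 and 0 members were called in the same 3 comparisons (5.34%, 12.3% and 2.46% of all features) and 2 among the 3 strains (11.5%), where OLE1 was lost (adjusted p = 0.060). The ACC1 to FAS1 ratio then had a log2 difference of -0.27 and an adjusted p of 0.11, from 216 assignments within numbers. The smallest p these allow is 0.028, which for 1 ratio among 4 adjusts to 0.11, so this ratio alone could not pass.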
